A study of Bos taurus with 6 samples.

Results

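Chaperones, disulfide isomerases, degradation factors and stress sensors of the endoplasmic reticulum (ER) were followed in primary bovine aortic endothelial cells treated with TGF-beta 1, a cytokine of the vessel wall. A list of 36 gene symbols defined the set. Where several probe sets matched a gene, the brightest one on average stood for it. In this way 30 of the 36 genes were measured, among 9162 genes in all: 14 chaperones and folding helpers, 5 enzymes of disulfide bond formation, 7 genes of ER-associated degradation and 4 sensors or their effectors. UGGT1, PDIA6, EDEM1, XBP1, ATF6 and ERN1 were not analysed here. The last 3 leave the ATF6 and IRE1 sensors without a measured transcript, so EIF2AK3 (PERK) was the only primary sensor among the 30 genes.

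Cells were freed from bovine aorta with collagenase and grown in RPMI medium. The treated group received 5 ng/ml TGF-beta 1 for 24 hours and the basal group received nothing. Each group had 3 Affymetrix arrays of total RNA, from triplicates of 3 cultures. The labels do not say whether these cultures came from separate animals, so p-values measure the spread between these arrays only, and the number of arrays limits precision. In such bulk RNA a lower share of cells carrying a transcript and less transcript per cell cannot be told apart.

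The ER folds secreted and membrane proteins, and endothelial cells send large amounts of matrix and adhesion protein through it. When unfolded protein accumulates, the chaperone HSPA5 (BiP) leaves the sensors PERK, IRE1 and ATF6. ATF6 and the IRE1 product XBP1 raise chaperone and degradation genes, while PERK slows translation and, through ATF4, raises genes of amino acid supply and, under lasting stress, DDIT3 (CHOP). ER-associated degradation returns misfolded proteins to the cytosol for the proteasome.

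The arrays did not separate by treatment alone. On the first principal component, with 63.4% of the variance, basal 1, basal 2 and TGFB1 1 lay below 0 and basal 3, TGFB1 2 and TGFB1 3 above it. TGFB1 1 was the array closest to 0 there, at -10.28, and lay between basal 2 and basal 3. The second component, with 24.7% of the variance, did separate the groups, with every basal array above 0 and every treated array below it. The array sets of 3 on the first component have no name in the labels and were defined from the data. TGFB1 1 was placed by the sign of its value. Differences within each set are therefore given for the genes described, first for the set of basal 1, basal 2 and TGFB1 1 and then for the other. Array medians lay between 5.88 and 5.92 log2. The endothelial markers PECAM1 (11.73 to 12.43) and CDH5 (11.37 to 12.34) were far above these medians on all 6 arrays. The endothelial list as a whole (13 of 14 measured) had means of 9.01 to 9.54 basal and 8.95 to 9.14 treated. Its member CLDN5 fell and was the only one called. In 7 of the 13 every treated array lay below every basal array, among them PECAM1 (difference -0.52) and CDH5 (-0.57). In 3, EMCN, ENG and ROBO4, every treated array lay above. Over all genes these shares were 15.1% and 8.19%. VWF (5.99 to 6.33) lay close to the array medians, and FLT1 (4.94 to 5.11) and KDR (4.39 to 5.50) lay below. Means over the other marker lists overlapped between groups for leukocytes (5 of 8 measured, 4.56 to 4.71 basal and 4.58 to 4.74 treated), plasma cells (3 of 5, 4.35 to 4.45 and 4.27 to 4.41), epithelium (7 of 7, 4.82 to 5.00 and 4.77 to 4.93) and fibroblasts (8 of 8, 7.01 to 7.21 and 7.05 to 7.10). Those of smooth muscle (8 of 8) were 6.41 to 6.51 basal and 6.62 to 6.89 treated, and among them TAGLN alone was called, while the smooth muscle myosin MYH11 stayed between 4.61 and 4.87. The 3′ minus 5′ control difference for actin, a sign of RNA quality, was 1.31 to 1.70 in basal and 1.31 to 1.86 in treated cultures. The same difference for EF1A moved with the array sets, at -2.86, -2.51 and -2.44 on basal 1, basal 2 and TGFB1 1 and at -1.87, -2.09 and -2.01 on basal 3, TGFB1 2 and TGFB1 3. The part of these markers and controls in the results was not tested. No value of these arrays carries a detection call.

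The comparison of treated with basal cultures asked how TGF-beta 1 changes the transcriptome of these cells. Among the 30 genes, the ER chaperones HSPA5 and HYOU1 rose about 2-fold and no gene fell (limma adjusted p under 0.05). In all 9162 genes 0.557% were called higher and 1.17% lower. At an unadjusted p under 0.05 there were 11 higher and 0 lower among the 30, against 5.99% of all genes higher and 11.4% lower. The median log2 difference was 0.32 over the 30 genes and -0.03 over all genes, and 25 of the 30 were above 0. In 14 of them every treated array lay above every basal array, and in 0 of them below, where 8.19% and 15.1% of all genes were so placed. The list was chosen with earlier results of these data known, so these contrasts with all genes are a description only. With 3 arrays against 3 the exact permutation test of a single gene cannot give a p below 0.1.

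**Figure D1:**
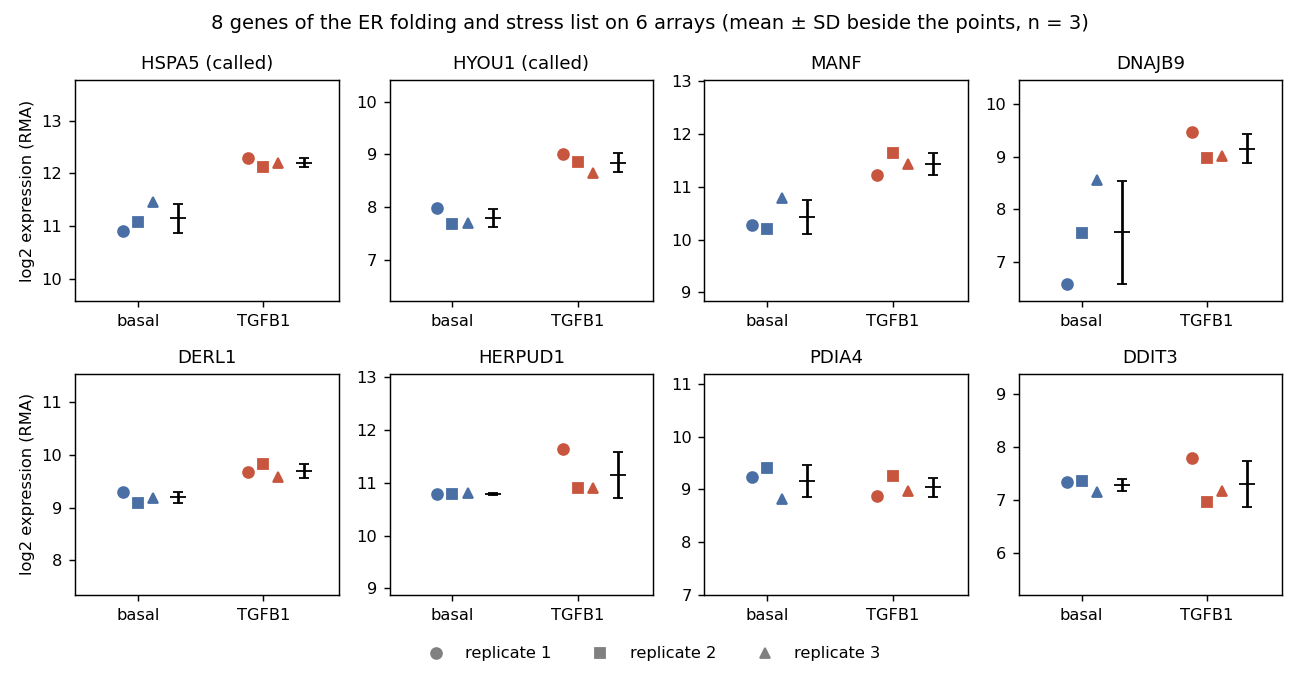
Log2 expression of 8 genes on each of the 6 arrays, with the mean and SD of the 3 arrays of a group drawn beside the points. HSPA5 and HYOU1 are apart by about 1 log2 unit, DNAJB9 is spread over 6.59 to 8.55 in basal cultures, and HERPUD1 is high on TGFB1 1 alone (11.65).

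By role, the called genes were both chaperones. Of 14 chaperones and folding helpers 2 rose, 12 were above 0 and their median was 0.55 log2. None of the 5 disulfide enzymes (median 0.27), the 7 degradation genes (median 0.28) or the 4 sensors and effectors (median 0.08) passed by limma. At an unadjusted p under 0.05, 9 of the 14 chaperones and folding helpers were higher and 0 lower. The other 3 groups had 0, 2 and 0 such genes, each of them higher. Of all genes 5.99% were higher and 11.4% lower. These medians describe unequal and small groups, and no test compared the groups.

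**Figure D2:**
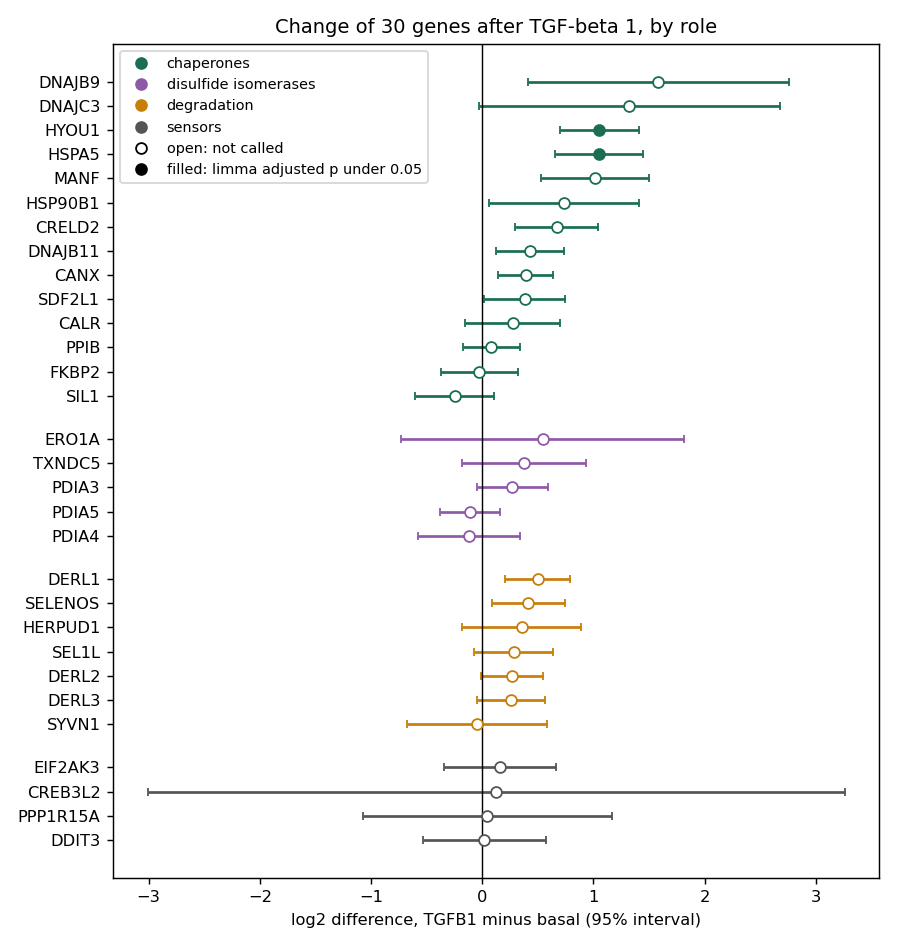
Log2 difference between treated and basal cultures for the 30 genes, ordered within 4 role groups, with 95% intervals of the moderated fit; filled points passed the limma threshold. The intervals of 11 genes lie above 0 and none lies below, and CREB3L2 has the widest interval, from -3.01 to 3.26.

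HSPA5 is the Hsp70 of the ER and the regulator of all 3 sensors. Its probe set stood at 10.91, 11.08 and 11.45 log2 in basal cultures and at 12.28, 12.11 and 12.20 after TGF-beta 1. The groups did not overlap, and basal 3 was the basal array closest to the treated ones. HSPA5 rose 2.07-fold (95% interval 1.57 to 2.72, log2 difference 1.05, SE 0.16, limma adjusted p = 0.0449). The difference was 1.29 within the set of basal 1, basal 2 and TGFB1 1 and 0.70 within the other set. Another bright HSPA5 probe set stood at 9.79, 10.28 and 10.58 in basal and 11.74, 11.64 and 11.39 in treated cultures, a difference of 1.37 (SE 0.22). The remaining HSPA5 probe set lay between 3.33 and 3.77 on all arrays, with a difference of 0.10.

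HYOU1 (Grp170) is a large ER Hsp70 that exchanges the nucleotide of HSPA5. It stood at 7.98, 7.68 and 7.71 in basal and at 9.01, 8.86 and 8.65 in treated cultures, without overlap. HYOU1 rose 2.08-fold (1.62 to 2.65, log2 difference 1.05, SE 0.15, limma adjusted p = 0.0371). Within the array sets the difference was 1.18 and 1.05. Its 4 other probe sets lay lower, between 4.35 and 6.16, with differences from -0.20 to 0.29, none of them called. Adjusted over all 24016 probe sets, HYOU1 kept its call (limma adjusted p = 0.0469) and HSPA5 did not (0.0602).

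Both calls needed every array other than basal 3. Without basal 1, basal 2 or any treated array in turn, 0 of the 30 genes were called (limma), while 8 to 10 had an unadjusted p under 0.05. Among all 9162 genes, 1010 to 1359 had an unadjusted p under 0.05 in these fits. The adjusted p of HSPA5 then reached 0.213 and that of HYOU1 0.195, with log2 differences of 0.93 to 1.20 and 0.97 to 1.15 over all 6 omissions. The number of calls over all genes was then between 0 and 8.

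MANF is a secreted ER stress protein that binds HSPA5. It stood at 10.28, 10.21 and 10.79 in basal and 11.22, 11.65 and 11.44 in treated cultures, again without overlap. The difference of 1.01 (SE 0.20, a 2.02-fold ratio with an interval of 1.44 to 2.82) missed the threshold, with a limma adjusted p = 0.0743. CRELD2, another secreted ER stress protein, stood at 8.59, 8.45 and 8.58 against 8.95, 9.46 and 9.22, a difference of 0.67 (SE 0.15, limma adjusted p = 0.0975). The SD of CRELD2 was 0.08 in basal and 0.25 in treated cultures. By array set, MANF differed by 0.98 and 0.75 and CRELD2 by 0.43 and 0.76.

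J-domain proteins hand clients to HSPA5, and 2 of the 3 listed here had the largest basal spread among the chaperones. DNAJB9 (ERdj4) stood at 6.59, 7.56 and 8.55 in basal and 9.47, 8.96 and 9.01 in treated cultures. The groups did not overlap, yet the basal arrays spanned nearly 2 log2 units, so the difference of 1.58, the largest of the 30, had an SE of 0.48 (limma adjusted p = 0.168). DNAJC3 (P58IPK), which also restrains PERK, had 6.37, 7.26 and 8.62 against 8.37, 8.92 and 8.92, and here basal 3 lay above TGFB1 1 (difference 1.32, SE 0.56, limma adjusted p = 0.299). DNAJB11 (ERdj3) stood at 7.45, 7.37 and 7.40 against 8.05, 7.70 and 7.76, a smaller difference of 0.43 (SE 0.13, limma adjusted p = 0.157) over tight basal arrays (SD 0.04). Within the array sets DNAJB9 differed by 2.39 and 0.44, DNAJC3 by 1.56 and 0.30, and DNAJB11 by 0.64 and 0.33.

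HSP90B1 (GRP94), the Hsp90 of the ER, repeated the high basal 3 value. It stood at 11.16, 11.26 and 12.11 in basal and 12.02, 12.35 and 12.38 in treated cultures, with a difference of 0.74 (SE 0.28, limma adjusted p = 0.246). CANX, the membrane-bound lectin chaperone of glycoproteins, had 10.92, 10.82 and 10.98 against 11.27, 11.26 and 11.36. The CANX difference of 0.39 had SDs of 0.08 and 0.05 and an SE of 0.10, the smallest of the 30 (limma adjusted p = 0.122). CALR, the soluble partner of CANX, stood at 10.60, 10.78 and 10.20 against 10.72, 10.94 and 10.74, so that the groups overlapped (difference 0.27, SE 0.18). By array set, HSP90B1 differed by 0.81 and 0.25, CANX by 0.40 and 0.33 and CALR by 0.025 and 0.64.

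The other folding helpers lay within 0.4 log2 of their basal level. SDF2L1, a partner of the HSPA5 cycle, stood at 0.38 (SE 0.15) without overlap, and the nucleotide exchange factor SIL1 at -0.25 (SE 0.15) with overlap. The prolyl isomerases FKBP2 and PPIB stood at -0.03 and 0.08, with 95% intervals of -0.37 to 0.32 and -0.18 to 0.34. PPIB also has 3 control probe sets on the array, along the 3′, middle and 5′ parts of the transcript. They stood at 0.05, 0.08 and 0.07, close to the probe set used here. Within the array sets SDF2L1 differed by 0.21 and 0.41, SIL1 by -0.32 and -0.0079, FKBP2 by -0.12 and 0.045 and PPIB by 0.08 and 0.17.

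**Figure D3:**
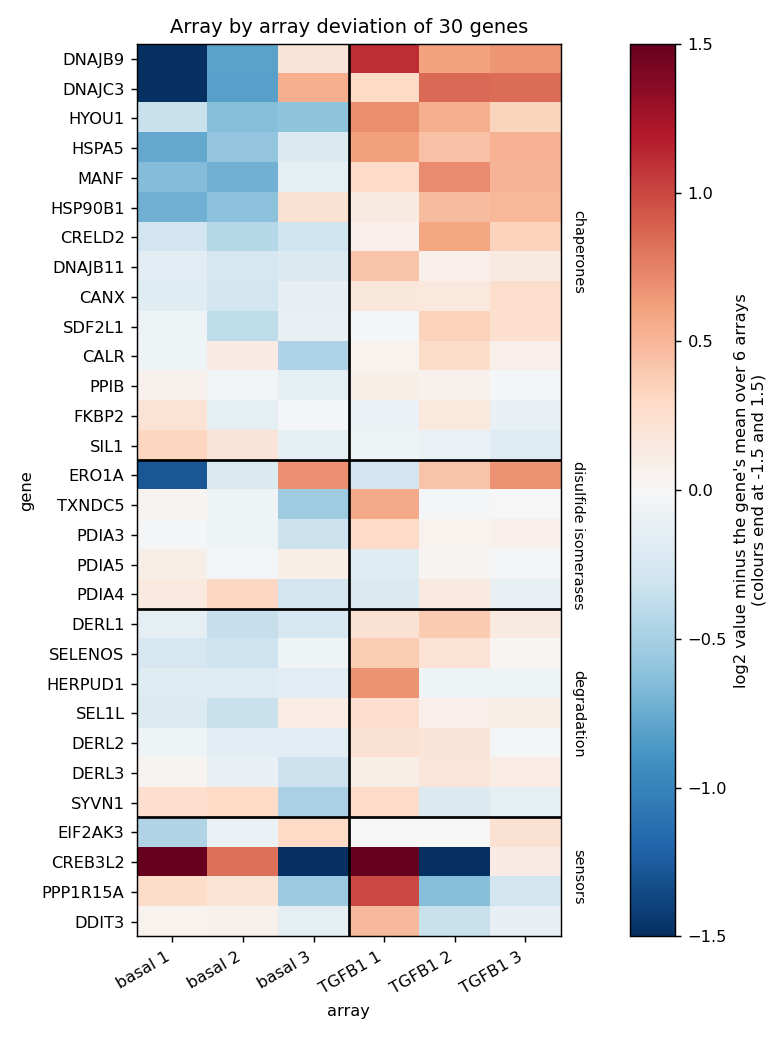
Deviation of each gene's log2 value from its own mean over the 6 arrays, as colour, with genes in rows by role and arrays in columns. The chaperones from DNAJB9 to SDF2L1 are mostly blue in basal and red in treated arrays, while PPP1R15A and DDIT3 are reddest on TGFB1 1. CREB3L2 is as red on basal 1 (11.29) as on TGFB1 1 (11.37), since both pass the end of the colour scale.

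The enzymes of disulfide bonds were split. PDIA3 (ERp57), which works with CANX and CALR on glycoproteins, stood at 11.91, 11.86 and 11.61 in basal and 12.21, 11.97 and 12.00 in treated cultures, a difference of 0.27 (SE 0.13) without overlap. TXNDC5 (ERp46) stood at 11.54, 11.42 and 10.96 against 12.06, 11.48 and 11.50, with a difference of 0.37 (SE 0.23). Its low basal 3 and high TGFB1 1 arrays set the spread, and within the array sets it differed by 0.58 and 0.53. The other TXNDC5 probe set gave 0.38. PDIA3 differed by 0.33 and 0.38 within the sets.

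PDIA4 (ERp72) stood at 9.24, 9.40 and 8.82 against 8.88, 9.25 and 8.98, with overlapping groups and a difference of -0.12 (SE 0.19). A PDIA4 probe set of almost the same brightness gave 0.18, so the sign depended on the probe set. PDIA4 differed by -0.44 and 0.29 within the array sets. PDIA5 stood at -0.11 (SE 0.11), with -0.22 and -0.09 within the sets. ERO1A, the oxidase that recharges the isomerases, ran from 4.90 to 6.87 in basal and from 5.90 to 6.86 in treated cultures (difference 0.55, SE 0.52). All arrays of one set lay at or below 5.98 and all of the other at or above 6.62, and the differences within them were 0.46 and -0.13.

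Among the degradation genes, the derlins of the retrotranslocation machinery stood at differences of 0.26 to 0.50. DERL1 stood at 9.30, 9.09 and 9.19 in basal and 9.67, 9.83 and 9.57 in treated cultures, a 1.41-fold ratio (1.16 to 1.73, SE 0.12 log2, limma adjusted p = 0.105). It was alike in both array sets, at 0.47 and 0.52. SELENOS, a selenoprotein that links the derlins to the VCP ATPase, had 9.03, 8.96 and 9.21 against 9.65, 9.49 and 9.31 (difference 0.42, SE 0.14, limma adjusted p = 0.192). DERL2 and DERL3 stood at 0.26 each without overlap, although the second DERL3 probe set gave -0.18. Within the array sets SELENOS differed by 0.66 and 0.18, DERL2 by 0.35 and 0.25 and DERL3 by 0.12 and 0.47.

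HERPUD1, a ubiquitin-like ER membrane protein that gathers the degradation complex, stood at 10.79, 10.78 and 10.81 in basal cultures and at 11.65, 10.90 and 10.90 after treatment. The difference of 0.36 (SE 0.22) came mostly from TGFB1 1, and without that array it was 0.11. HERPUD1 differed by 0.86 and 0.09 within the array sets. SEL1L, the scaffold of the ubiquitin ligase SYVN1, stood at 0.28 (SE 0.15), with 0.52 and -0.02 within the array sets. SYVN1 (HRD1) itself stood at -0.05 (SE 0.26) and had a low basal 3 value of 7.16 against 7.90 and 7.95. Its differences by array set were 0.0040 and 0.31.

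For each of the 4 measured sensors and effectors the groups overlapped and the interval of the difference included 0. EIF2AK3, the kinase PERK, stood at 7.00, 7.37 and 7.76 against 7.46, 7.46 and 7.68 (difference 0.16, 95% interval -0.35 to 0.66), and at 0.27 and -0.19 within the array sets. DDIT3 (CHOP), a transcription factor tied to death under lasting ER stress, stood at 7.35, 7.36 and 7.15 in basal and 7.79, 6.96 and 7.17 in treated cultures. Its difference was 0.02 with an interval of -0.53 to 0.57, which leaves room for a change of about 1.5-fold (fold interval 0.692 to 1.48).

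PPP1R15A (GADD34), which reverses the PERK brake on translation, stood at 6.99, 6.92 and 6.17 against 7.70, 6.08 and 6.44 (difference 0.04, SE 0.46). Both DDIT3 and PPP1R15A were highest on TGFB1 1 and lowest on TGFB1 2. Within the array sets DDIT3 differed by 0.44 and -0.09 and PPP1R15A by 0.75 and 0.09. CREB3L2, a transmembrane factor cut in the Golgi that raises secretory genes, had by far the widest spread. Its values were 11.29, 10.54 and 7.12 in basal and 11.37, 8.12 and 9.84 in treated cultures, so basal 3 lay more than 3 log2 units below the other basal arrays. The difference was 0.13 (SE 1.29), and 0.45 and 1.86 within the array sets.

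The treatment difference was also taken within the array sets, a comparison chosen after the data were seen. In each set 1 arm is a single array, TGFB1 1 in one and basal 3 in the other, so these differences have no replicate check and are a description. The median of the 30 genes was 0.44 in the set of basal 1, basal 2 and TGFB1 1 and 0.31 in the other set, against -0.01 and -0.03 over all genes. In both sets 22 of the 30 stood higher after TGF-beta 1, against 29.2% of all genes, and SIL1 and PDIA5 stood lower in both. FKBP2, PDIA4, ERO1A, SEL1L, EIF2AK3 and DDIT3 had opposite signs. Over the 9 pairs of a treated with a basal array, 20 to 26 of the 30 genes were higher in the treated array, and the median difference ran from 0.21 to 0.48, where the median over all genes ran from -0.15 to 0.04.

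**Figure D4:**
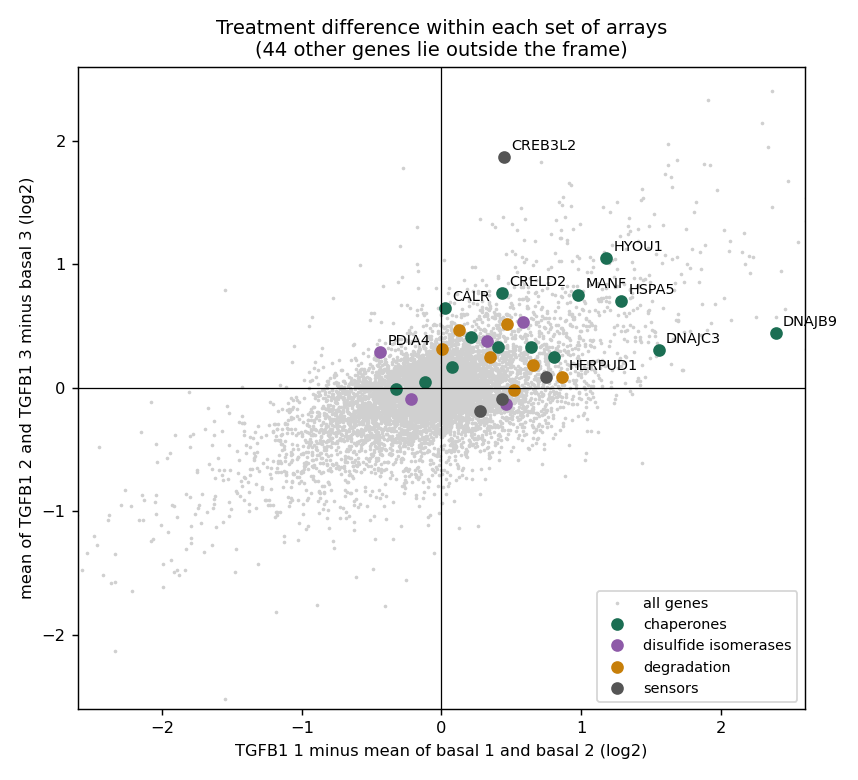
Treatment difference in log2 within the set of basal 1, basal 2 and TGFB1 1 (horizontal) and within the set of basal 3, TGFB1 2 and TGFB1 3 (vertical), with all genes in grey and the 30 genes coloured by role; 44 genes lie outside the frame. HYOU1, HSPA5 and MANF are above 0.7 on both axes, DNAJB9 and DNAJC3 are far to the right and at 0.44 and 0.30 on the vertical axis.

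A fit with the array sets as a block was also made. The sets were defined from the same values, so its p-values do not allow for that choice. In it 6 of the 30 genes were called higher and none lower (limma), against 4.01% of all genes higher and 5.58% lower. These were HSPA5, HYOU1, MANF, CRELD2, DNAJB11 and TXNDC5, with adjusted p of 0.0157, 0.00879, 0.0111, 0.0409, 0.0468 and 0.0205. Without basal 3 the number was also 6, against 5.69% of all genes higher. HSP90B1, DNAJB9 and DNAJC3 then passed (limma adjusted p = 0.0155, 0.0173 and 0.0199) beside HSPA5, HYOU1 and MANF. That fit compares basal arrays of one set with treated arrays mostly of the other, so treatment and array set cannot be told apart in it. HSPA5, HYOU1 and MANF were the 3 genes called in both fits. Over the 18 alternative settings the adjusted p of MANF ran from 0.0111 to 0.280, and that of DNAJB9 from 0.0173 to 0.436.

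Further genes of the ER, from lists that do not overlap the 30, gave 0 calls by limma in folding enzymes, N-glycan trimming, degradation and the processing of ATF6 and IRE1. Over all genes the called shares were also small, at 0.557% higher and 1.17% lower. Of 27 other folding enzymes and retrieval receptors, 6 were higher at an unadjusted p under 0.05 and none lower (5.99% and 11.4% of all genes), with a median of 0.28. FKBP11, a prolyl isomerase of secretory cells, stood at 9.57, 9.37 and 9.91 in basal and 10.45, 10.96 and 10.78 in treated cultures (difference 1.11, SE 0.20, limma adjusted p = 0.0573). KDELR2, a receptor that returns chaperones from the Golgi, stood at 0.47 (SE 0.14) and SELENOK, an ER membrane selenoprotein, at 0.44 (SE 0.11).

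Other genes of degradation had a median of -0.06 over 16, with 1 higher and 3 lower at an unadjusted p under 0.05, close to the 5.99% and 11.4% of all genes. EDEM2, which trims mannose to mark misfolded glycoproteins, stood at 10.50, 10.46 and 9.94 in basal and 9.21, 9.36 and 9.30 in treated cultures, a difference of -1.01 (SE 0.18, limma adjusted p = 0.0556). UBE2J1, the ubiquitin-conjugating enzyme of this route, lay on the other side at 0.97 (SE 0.31), and UFD1, a cofactor of VCP, at -0.42 (SE 0.14). Within the array sets EDEM2 differed by -1.27 and -0.61, UBE2J1 by 1.00 and 0.46 and UFD1 by -0.57 and -0.16. Of 4 genes of N-glycan trimming 1 was lower at an unadjusted p under 0.05 and none higher (11.4% and 5.99% of all genes). MOGS, GANAB and PRKCSH stood at -0.35, -0.37 and -0.47, and the lectin MLEC at 0.51. Within the array sets MOGS differed by -0.55 and -0.06, GANAB by -0.45 and -0.06 and PRKCSH by -0.52 and -0.0033. The decreases of MOGS, GANAB and PRKCSH thus lay mostly within the set of basal 1, basal 2 and TGFB1 1. MLEC differed by 0.11 and 0.76.

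In the list for ATF6 and IRE1 processing (12 genes, median -0.20), 2 were higher and 3 lower at an unadjusted p under 0.05 (5.99% and 11.4% of all genes). SERP1, which stabilises membrane proteins under stress, stood at 10.06, 9.94 and 10.17 against 10.69, 10.80 and 10.60 (difference 0.64, SE 0.12, limma adjusted p = 0.0597). RTCB, the ligase that joins XBP1 mRNA after IRE1 has cut it, stood at 0.69 (SE 0.15) and BFAR, an ER-anchored regulator of apoptosis, at -0.46 (SE 0.11). ATF6B of this list stood at -0.53 (SE 0.25, limma adjusted p = 0.35), with -0.49 and -0.28 within the array sets.

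Of 10 genes in the list for the ATF4 arm 1 rose, where 0.557% of all genes were called higher. At an unadjusted p under 0.05, 5 were higher and 0 lower (5.99% and 11.4% of all genes), and the list median was 0.58. DDIT4 (REDD1), an inhibitor of mTORC1 also raised by hypoxia and glucocorticoids, rose 2.67-fold (2.14 to 3.32, limma adjusted p = 0.0226). It stood at 10.54, 10.37 and 10.19 in basal and 11.89, 11.70 and 11.75 in treated cultures. PSAT1 of serine synthesis stood at 1.46 (SE 0.37) and the stress factor ATF3 at 0.81 (SE 0.19). Within the array sets DDIT4 differed by 1.44 and 1.53, PSAT1 by 1.68 and 1.85 and ATF3 by 1.21 and 0.38. TRIB3, a pseudokinase that DDIT3 and ATF4 raise, had 6.07, 5.97 and 5.68 against 7.87, 6.74 and 6.82 (difference 1.24, SE 0.32). Like DDIT3 and PPP1R15A it was highest on TGFB1 1, but its groups did not overlap. ATF4 itself stood at 0.35 (SE 0.16, limma adjusted p = 0.348). The list was not uniform, as 4 of its 10 genes lay below 0: NUPR1 at -0.25, VLDLR at -0.18, SESN2 at -0.07 and CEBPB at -0.07.

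Heat shock proteins of the cytosol and mitochondria served as a comparison outside the ER. Over 23 gene identifiers (22 symbols) the median was 0.20, with 2 higher and 4 lower at an unadjusted p under 0.05, close to the 5.99% and 11.4% of all genes. HSPA1A, the inducible cytosolic Hsp70, has 2 identifiers whose near-identical sequences make the assignment uncertain. For one it stood at 9.61, 9.36 and 9.43 against 8.61, 8.74 and 8.77 and fell 1.70-fold (log2 difference -0.76, SE 0.12, limma adjusted p = 0.0441). The other differed by -0.54 (SE 0.24). The small heat shock protein HSPB1 stood at -0.62 (SE 0.14) and the mitochondrial Hsp70 HSPA9 at 0.74 (SE 0.17, limma adjusted p = 0.0994). Within the array sets the called HSPA1A differed by -0.88 and -0.68, HSPB1 by -0.65 and -0.43 and HSPA9 by 1.02 and 0.36. HSPA5 and HSPA1A, Hsp70 proteins of different compartments, thus passed the threshold in opposite directions.

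**Figure D5:**
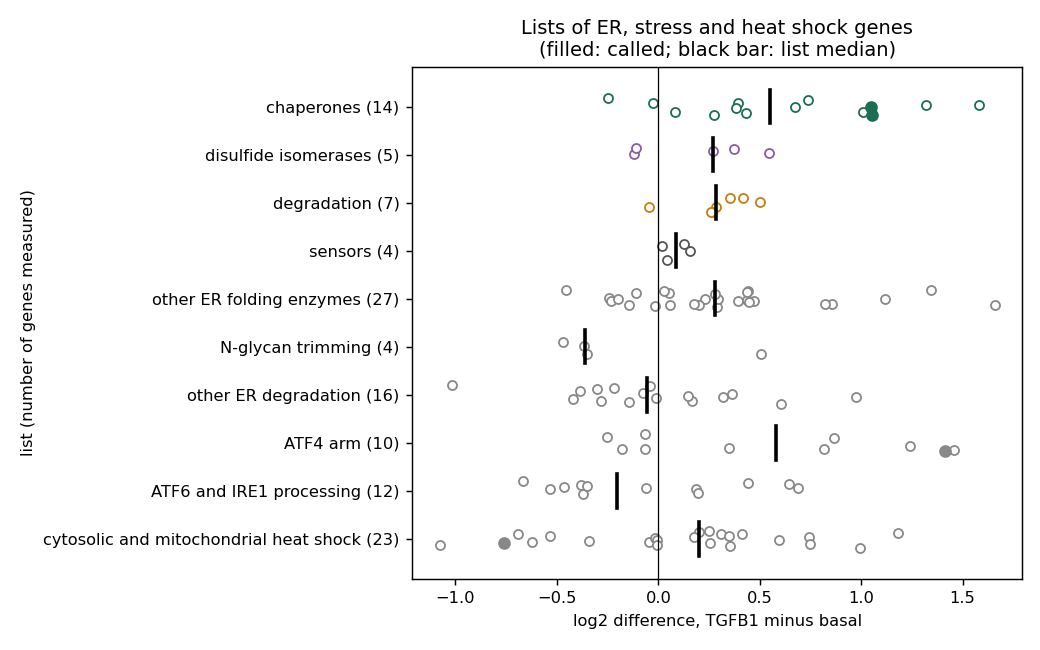
Log2 difference of every gene in the 4 role groups and in 6 further lists, with a black bar at each list's median; filled points passed the limma threshold. Medians run from -0.36 for N-glycan trimming to 0.58 for the ATF4 arm, and only HSPA5, HYOU1, DDIT4 and HSPA1A are filled.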

How the data were processed

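The deposited values are log2 expression per probe set. Per the submitters' processing notes RMA was used, through affy, with no version stated. That method subtracts background, makes the arrays' distributions equal and combines probes, which shrinks differences of very dim or very bright probe sets. The table held 24128 probe sets, and the 112 control probe sets were kept out of the tests. The array annotation gave 1 symbol to 13292, several to 86 and none to 10638 of the others. Of the first, 13263 were matched by gene identifier to RefSeq (ARS-UCD2.0), used for names only. The 30 genes had 47 probe sets.

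The treated and basal arrays entered a moderated linear model with group as its only term (lmFit and eBayes of limma 3.58.1, R 4.3.3), which had 4 residual and 2.14 prior degrees of freedom. Two-sided p-values received the Benjamini-Hochberg adjustment over 9162 genes, with a threshold of 0.05, and intervals are at 95%. The fit was run on simulated data with independent noise on each array. Those data held no array sets, so that run does not bear on them. All 30 genes are named, and from each further list those called and the 3 with the smallest unadjusted p; other genes named were chosen after their values were seen. The members and lists were chosen with earlier results of these data known. No promoter or protein sequence was used here. Plots came from matplotlib 3.10.9 (Python 3.11.15).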

Additional observations from a re-analysis of the deposited data

How the results depend on the processing

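The median log2 difference of the 30 genes, 0.32 as reported, kept its sign in all 18 settings. In each it moved from that value by less than 0.10, the SD of the genes' median level between arrays of a group. It ran from 0.26 to 0.39 when single arrays were left out. The number of the 30 genes called, 2 as reported, was 2 with a further quantile normalization, centred medians, robust eBayes and filters at the 25th percentile or the median of mean expression. It was 1 with limma-trend, 1 with the probe set of largest variance and 1 when adjusted over all probe sets. With the mean of all probe sets of a gene, where dim probe sets enter the mean, it was 0 (limma). In that fit 12 of the 30 genes had an unadjusted p under 0.05, against 1554 of all 9162. The number of the 30 called was 4 at an adjusted p of 0.1 and 6 with the array set as a blocking term. It ran from 0 to 6 when single arrays were left out. The number over all genes, 158 as reported, was 99 with limma-trend, 433 at an adjusted p of 0.1 and 878 with the array set as a blocking term. It ran from 0 to 1538 when single arrays were left out. The higher count in each range is that without basal 3.

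Same-numbered arrays deviated together for numbers 1 and 3 (correlations 0.67 and 0.69) but not for 2 (-0.45), so the numbers were not taken to pair the cultures. With the replicate number as a block 0 genes were called over all (limma, 2039 at an unadjusted p under 0.05) and 0 of the 30 (11 at an unadjusted p under 0.05).

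Some genes close to 0 changed sign, and the cause was not tested. With the mean of probe sets PDIA4 stood at 0.047, and with the probe set of largest variance PDIA5 stood at 0.0092 and PPIB at -0.059. With the array set as a blocking term SYVN1 stood at 0.16. When single arrays were left out, signs also changed within these ranges: FKBP2 -0.11 to 0.071, SYVN1 -0.30 to 0.092, EIF2AK3 -0.032 to 0.35, PDIA4 -0.29 to 0.0033, DDIT3 -0.22 to 0.19, CREB3L2 -1.14 to 0.95 and PPP1R15A -0.44 to 0.38.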
